A study of Hyphopichia burtonii with 8 samples.

Results

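The genes described here are the 38 of 6166 measured in the yeast Hyphopichia burtonii whose RNA level was lowest in medium with sodium chloride. They were chosen from the measured levels: the higher of the 2 NaCl values was at most 0.6 times the lowest value in the other 6 libraries, and that lowest value was at least 10 FPKM, a fragment count corrected for gene length and for library depth. Of 47 genes that met both thresholds, 9 were left out by ID as part of the choice, among them CHA1, ERG3, UPC2 and ADH1. The wild-type strain KJJ43, whose source was Nuruk, was put at an OD600 of 0.6 into YPD (yeast extract, peptone and glucose), plain or with 1 solute at 1 M (NaCl, KCl or sorbitol), and grown for 1 h. Each medium had 2 libraries, YPD was the control, and the labels do not say whether duplicates came from separate cultures, so p-values measure the spread between libraries, which may be technical. All cells were of 1 strain in the same rich base medium. At equal molarity the salts give more dissolved particles than sorbitol, so salt and sorbitol also differed in osmotic strength.

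The set held 19 genes with a symbol and 19 with a locus tag alone. The symbols came from the RefSeq annotation, except for TIM1, whose ID was itself a symbol and matched no locus tag there. The named members belonged to glycolysis (6 genes), sterol and haem synthesis (3), purine metabolism (2) and membrane transport (2), and 6 had other roles. Symbols follow genes of other yeasts, and each function given is background from those relatives. Glycolysis splits glucose into pyruvate, and fermenting yeasts hold its enzymes among their most abundant proteins. Ergosterol is the sterol of fungal membranes. Its synthesis and that of haem share a need for molecular oxygen, used by squalene epoxidase, lanosterol demethylase and coproporphyrinogen oxidase. Sodium is more toxic than potassium for most yeasts, which keep potassium high and sodium low inside the cell, whereas sorbitol is a neutral solute that adds osmotic stress without ions.

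Because NaCl against the other 3 media chose the members, their NaCl levels are given as a description with no test. Mean levels in NaCl were 6.63% to 54.3% of those in YPD (median 30.9%), 24.4% to 55.4% of those in KCl (median 45.5%) and 6.83% to 45.4% of those in sorbitol (median 29.1%). The gap to KCl was thus the smallest of the 3 for the median member. Just inside the ratio threshold were APT1, RPL9B and TDH3, with ratios of 0.600, 0.599 and 0.590, and just outside were ERG251 (0.605), YHB1 (0.608) and HYPBUDRAFT_228370 (0.613). Just above the floor were CAP4, HYPBUDRAFT_105908 and HYPBUDRAFT_6920, whose lowest values without NaCl were 10.1, 10.3 and 11.4 FPKM, and just below it were HYPBUDRAFT_147814 (7.84), HYPBUDRAFT_242118 (7.12) and HYPBUDRAFT_154124 (6.36). With each other medium put in the place of NaCl and no exclusions, the same thresholds found 74 genes lowest in YPD, 2 lowest in KCl and 2 lowest in sorbitol.

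**Figure D1:**
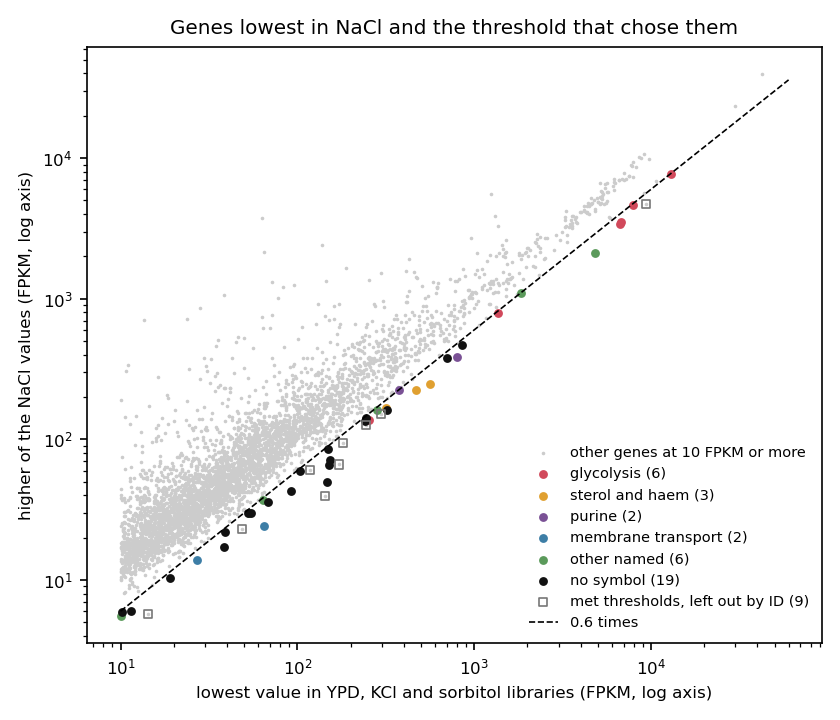
Each point is a gene with at least 10 FPKM in all 6 libraries without NaCl (4312 genes). The x axis is the lowest of those 6 values and the y axis the higher of the 2 NaCl values, in FPKM on log axes. Coloured points are the 38 members by role, open squares the 9 genes left out by ID, and the dashed line is 0.6 times the x value. The members lie on or below the line from about the floor to the level of TDH3.

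The number of genes at 1 FPKM or more ran from 5624 to 5699 over the libraries. The correlation of duplicates was 0.982 to 0.987 on log2 values, taken over genes, which are no independent replicates. The values carry no fragment counts, but the steps between low values set an estimated relative depth that was highest in YPD 2 and lowest in KCl 2, at 0.456 of it. By these steps the member with the fewest fragments, HYPBUDRAFT_99933, rested on about 47 of them in its lowest library, and the median member on about 1713.

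The 6 glycolytic members covered phosphofructokinase and the steps from glyceraldehyde phosphate to phosphoenolpyruvate. PFK2, a phosphofructokinase subunit at the committing step, stood at 2570.1 and 2313 FPKM in the YPD libraries, 797 and 690.0 with NaCl, 1868 and 1371 with KCl, and 2861 and 3073 with sorbitol. TDH3, glyceraldehyde-3-phosphate dehydrogenase and the most abundant member, stood at 17743 and 16292 FPKM in the YPD libraries, 7686 and 7014 with NaCl, 15000.5 and 13034 with KCl, and 18502 and 17888 with sorbitol. Levels of PGK1, phosphoglycerate kinase, were 9731 and 8094 FPKM in the YPD libraries, 3124 and 3419 with NaCl, 7619.6 and 6691 with KCl, and 10852 and 10216 with sorbitol. For these 3 genes the sorbitol values lay above both YPD values, the KCl values lay below both YPD values, and the NaCl values were lower by a wide margin. GPM1, phosphoglycerate mutase, was measured at 10449.9 and 8818 FPKM in the YPD libraries, 3491 and 3333 with NaCl, 7778 and 6767 with KCl, and 12080.2 and 10916 with sorbitol. ENO1, enolase, had 12643.5 and 10439.6 FPKM in the YPD libraries, 4634 and 4059 with NaCl, 10502 and 7899 with KCl, and 14561 and 13225 with sorbitol. For GPM1 all 4 media were separate, whereas for ENO1 the higher KCl value overlapped YPD.

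GPM2, a relative of GPM1, was expressed far less, at 472 and 553 FPKM in the YPD libraries, 137 and 138 with NaCl, 267 and 255 with KCl, and 451 and 624 with sorbitol. Its KCl values were about level with each other and lay below every YPD and sorbitol value. How similar GPM1 and GPM2 are in sequence was not examined, and reads of near-identical copies could be split between them by the counting. The 6 glycolytic genes together held 4.02% and 3.39% of all summed FPKM in the YPD libraries, 1.66% and 1.54% in NaCl, 3.01% and 2.88% in KCl, and 3.60% and 3.68% in sorbitol. Most of the summed level of the 38 members thus came from these genes. All members together held 5.56% and 4.76% in YPD, 2.15% and 2.08% in NaCl, 4.08% and 3.99% in KCl, and 5.06% and 5.29% in sorbitol. Summed FPKM was 1.335e+06 and 1.373e+06 in the YPD libraries, against 1.649e+06 and 1.521e+06 with sorbitol. It was 1.197e+06 and 1.210e+06 with NaCl, and 1.429e+06 and 1.251e+06 with KCl. As shares, the sorbitol values of both sets lay between the 2 YPD values. For the sums of both sets, a higher level in sorbitol than in YPD thus depends on how libraries are scaled.

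Of the sterol and haem members, ERG1 (squalene epoxidase) stood at 815 and 757 FPKM in the YPD libraries, 237 and 247 with NaCl, 646 and 562 with KCl, and 1219 and 1288 with sorbitol. Both sorbitol values lay above both YPD values, and both KCl values lay below them, so ERG1 had 4 separate levels. ERG11, the lanosterol demethylase that azole drugs inhibit, stood at 697 and 318 FPKM in the YPD libraries, 168 and 146 with NaCl, 424 and 373 with KCl, and 736 and 516 with sorbitol. Its YPD libraries differed 2.19-fold, the widest gap between duplicates among the 38 genes in any medium, and spanned its KCl values. HEM13, coproporphyrinogen oxidase of haem synthesis, was measured at 985 and 791 FPKM in the YPD libraries, 204 and 225 with NaCl, 476 and 466 with KCl, and 1050.0 and 1052 with sorbitol. Its KCl level was 53.1% of the YPD mean and its NaCl level 24.2%, and neither medium overlapped YPD.

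In purine metabolism, ADE13, which encodes adenylosuccinate lyase, had 797 and 806 FPKM in the YPD libraries, 384 and 373 with NaCl, 1377 and 848 with KCl, and 1136 and 972 with sorbitol. APT1, adenine phosphoribosyltransferase of purine salvage, had 423 and 454 FPKM in the YPD libraries, 208 and 225 with NaCl, 406 and 376 with KCl, and 656 and 545 with sorbitol. In both genes the NaCl values were the lowest and the sorbitol values lay above YPD, but the KCl values of ADE13 lay above YPD and those of APT1 below it. The transporter gene ROA1, which in Candida albicans encodes an ABC transporter of the drug efflux family, stood at 86.6 and 82.6 FPKM in the YPD libraries, 24.2 and 17.6 with NaCl, 106 and 65.1 with KCl, and 79.8 and 77.9 with sorbitol. Its KCl values spanned those of YPD and sorbitol, and both sorbitol values lay just below both YPD values. That its NaCl values lay apart was fixed by the choice of genes. GAP4, an amino acid permease gene, had 44.1 and 43.3 FPKM in the YPD libraries, 13.955 and 10.030 with NaCl, 29.6 and 27.1 with KCl, and 50.6 and 53.3 with sorbitol. Its KCl values lay between those of YPD and NaCl without overlapping either.

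**Figure D2:**
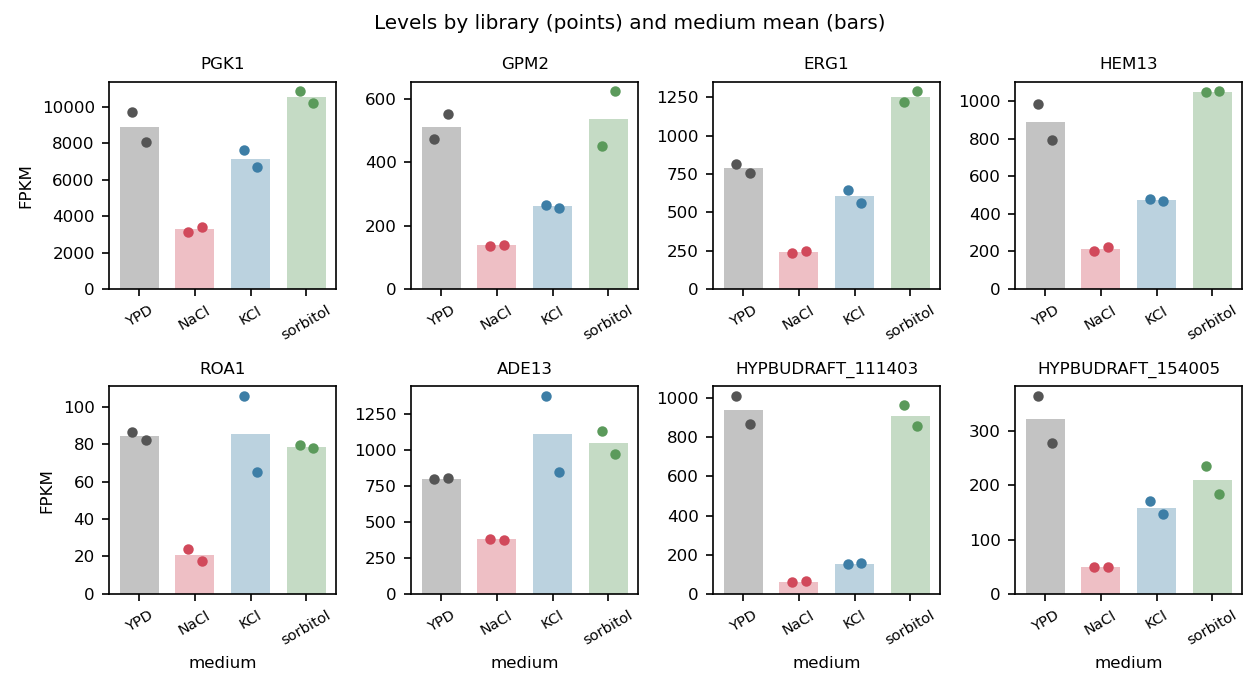
FPKM in each library (points) and the mean of each medium (bars, n = 2 libraries) for 8 members, with the medium on the x axis and a linear y axis from 0 for each gene. In HYPBUDRAFT_111403, GPM2 and HEM13 the KCl points lie well below YPD, whereas in ROA1 and ADE13 they lie around or above it.

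The remaining named members had varied roles. TIM1, whose ID is a symbol without a match in the annotation, is given no role here. It was abundant, at 7201 and 6503 FPKM in the YPD libraries, 1994 and 2116 with NaCl, 4978 and 4836 with KCl, and 7973 and 8270.0 with sorbitol. CAP4, for which no role is given here either, was among the least abundant members, at 22.3 and 36.5 FPKM in the YPD libraries, 4.85 and 5.52 with NaCl, 10.1 and 11.3 with KCl, and 22.1 and 26.3 with sorbitol. OSM1, which in Saccharomyces cerevisiae encodes a fumarate reductase, had 499.6 and 493 FPKM in the YPD libraries, 139 and 163 with NaCl, 282 and 296 with KCl, and 501 and 603 with sorbitol. In all 3 genes every KCl value lay below every YPD and sorbitol value and above every NaCl value. VPS70, of vacuolar protein sorting in Saccharomyces cerevisiae, showed the same order, with means of 101 ± 19.9 FPKM in YPD (SD, n = 2), 29.8 ± 0.3 in NaCl, 57.1 ± 5.66 in KCl and 92.4 ± 0.124 in sorbitol. CWT1, which in Candida albicans encodes a transcription factor for cell wall genes, had means of 91.6 ± 7.78 FPKM in YPD against 36.7 ± 0.873 in NaCl, 76.3 ± 17.1 in KCl and 96.5 ± 1.42 in sorbitol. RPL9B, a protein of the large ribosomal subunit, stood at 1838 and 2085 FPKM in the YPD libraries, 841 and 1102 with NaCl, 2383 and 2240.1 with KCl, and 2726 and 2670.0 with sorbitol, with KCl and sorbitol above YPD.

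The 19 members without a symbol had mean levels in YPD of 13.2 to 2008 FPKM and NaCl levels at 6.63% to 54.3% of YPD (median 31.1%). HYPBUDRAFT_111403 had the greatest fall of all, at 1010.3 and 867 FPKM in the YPD libraries, 58.7 and 65.8 with NaCl, 151 and 159 with KCl, and 964 and 858 with sorbitol. Its mean in YPD was 15.1 times and in sorbitol 14.6 times that in NaCl, while the KCl mean was only 2.49 times the NaCl mean. HYPBUDRAFT_154005, with the lowest ratio of the set (0.341), stood at 364 and 279 FPKM in the YPD libraries, 49.6 and 50.1 with NaCl, 171 and 147 with KCl, and 236 and 185 with sorbitol. HYPBUDRAFT_180195 had 1853 and 2163 FPKM in the YPD libraries, 421 and 472 with NaCl, 850.2 and 880.0 with KCl, and 2259 and 2663 with sorbitol. In these 3 genes KCl lay between NaCl and the other media. HYPBUDRAFT_6667 had 158 and 136 FPKM in the YPD libraries, 36.0 and 36.0 with NaCl, 68.5 and 76.1 with KCl, and 118 and 85.2 with sorbitol, and HYPBUDRAFT_108410 had 1439 and 776 FPKM in the YPD libraries, 316 and 376 with NaCl, 886 and 704 with KCl, and 1749 and 1773 with sorbitol. Sorbitol lay below YPD in the former and above it in the latter. HYPBUDRAFT_126557 and HYPBUDRAFT_152785 had KCl means of 57.1% and 55.3% of YPD. HYPBUDRAFT_107455 differed from these in that sorbitol (153 and 179 FPKM), not KCl (175 and 248), had the lower mean, against 233 and 278 in YPD. Its KCl and sorbitol values overlapped, and the difference between them was not called.

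Of the members without a symbol, 3 were higher in KCl than in YPD on the mean. HYPBUDRAFT_212503 stood at 61.3 and 52.4 FPKM in the YPD libraries, 29.9 and 28.3 with NaCl, 101 and 84.6 with KCl, and 94.8 and 80.1 with sorbitol. HYPBUDRAFT_152363 had 114 and 103 FPKM in the YPD libraries, 58.8 and 59.2 with NaCl, 155 and 205 with KCl, and 105 and 155 with sorbitol, and HYPBUDRAFT_152200 had 246 and 307 FPKM in the YPD libraries, 142 and 123 with NaCl, 369.7 and 244 with KCl, and 508 and 456 with sorbitol. Both KCl values of the former 2 genes exceeded both YPD values, whereas the KCl values of HYPBUDRAFT_152200 spanned YPD. In the order of genes in the annotation, HYPBUDRAFT_111403 and HYPBUDRAFT_212503 are direct neighbours, and HYPBUDRAFT_107455 lies 1 gene away from TDH3. The first of these pairs moved apart in KCl, where the former was at 16.5% and the latter at 163% of its YPD mean. The members' genes had a median length of 1084 nt in the annotation against 1269 nt for the 4309 genes that passed the floor and have a length, and a median YPD level of 373 FPKM against 53.3 for all 4312.

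**Figure D3:**
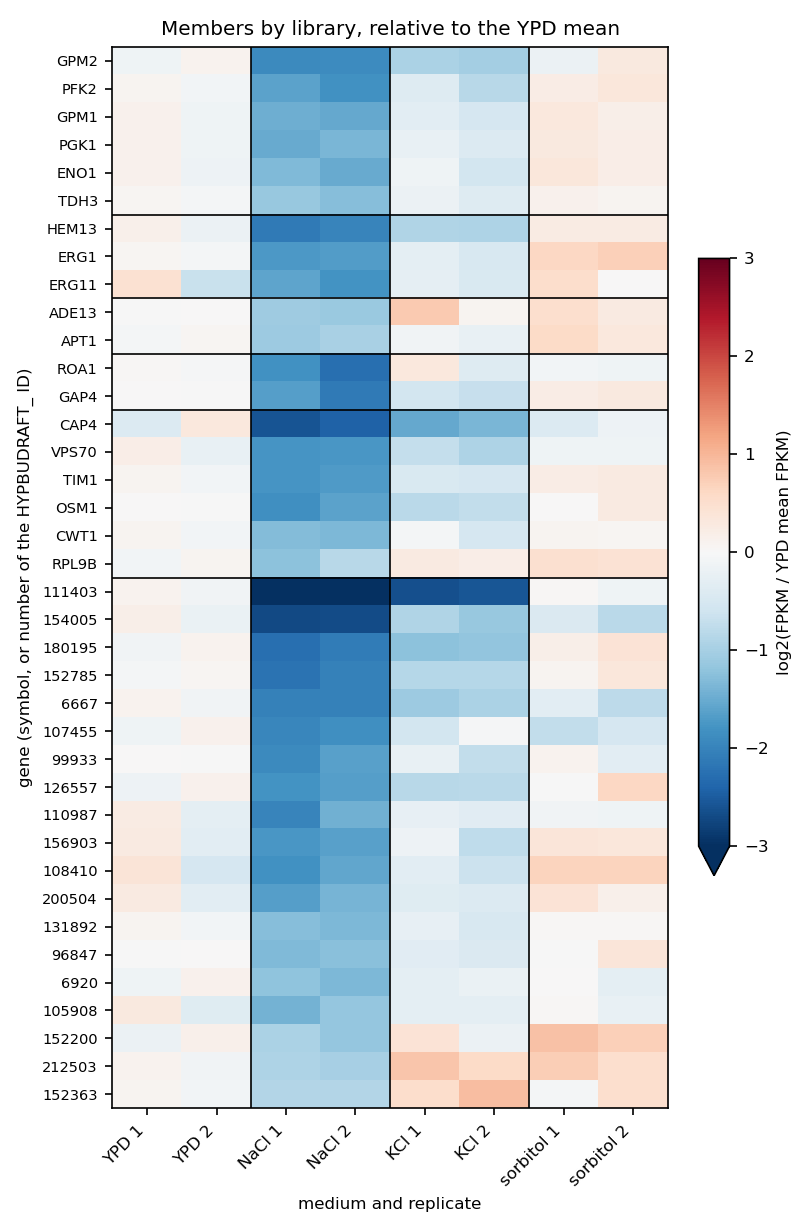
Level of each of the 38 members in each of the 8 libraries as log2 of its FPKM over the gene's YPD mean (blue lower, red higher, colours saturate at 3 log2 units), with genes in rows by role and libraries in columns by medium. All members are blue in both NaCl columns, which the choice of genes fixes. Most are pale blue in KCl, and many are pale red in sorbitol.

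The thresholds did not order YPD, KCl and sorbitol among themselves, so their differences could be tested, although a gene that fell in KCl to near its NaCl level could not become a member. The test was limma on log2(FPKM + 1) over the 5765 genes that reached 1 FPKM in 2 or more libraries, with Benjamini-Hochberg adjustment over them and a call at an adjusted p under 0.05. All 38 members were tested. In KCl against YPD, 12 members fell, 1 rose and 25 were not called, where 4.51% of all tested genes were called lower and 6.45% higher. The members called lower came to 31.6% of the set. The tested genes included ones below the floor of 10 FPKM. They were not matched to the members for level or spread, here or in the comparisons of members that follow. The median log2 change of all 38 members was -0.38, against 0.01 over all tested genes, and 33 of 38 estimates were below 0. The set is therefore not one lowered by sodium chloride alone, since 12 of its genes were also lower with potassium chloride than in YPD.

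In KCl against YPD the fall was deepest for HYPBUDRAFT_111403 (log2 change -2.59 ± 0.14, adjusted p = 4.7e-05). CAP4 followed (-1.34 ± 0.24, adjusted p = 0.014), then HYPBUDRAFT_180195 (-1.21 ± 0.14, adjusted p = 0.0027), HYPBUDRAFT_6667 (-1.01 ± 0.18, adjusted p = 0.013) and HYPBUDRAFT_154005 (-1.002 ± 0.18, adjusted p = 0.014). GPM2 (-0.97 ± 0.17, adjusted p = 0.013), the haem gene HEM13 (-0.90 ± 0.14, adjusted p = 0.0073) and OSM1 (-0.78 ± 0.14, adjusted p = 0.014) also fell, as did VPS70 (-0.80 ± 0.17), TIM1 (-0.48 ± 0.11), HYPBUDRAFT_152785 (-0.84 ± 0.16) and HYPBUDRAFT_126557 (-0.80 ± 0.20). HYPBUDRAFT_212503 rose (0.70 ± 0.16, adjusted p = 0.033). No glycolytic member other than GPM2 was called in KCl against YPD by limma, although 4 of the 6 were lower at an unadjusted p under 0.05, and the nearest to a call was PFK2 (adjusted p = 0.052). The count of 12 became 3 without YPD 1, 7 without YPD 2, 5 without KCl 1 and 6 without KCl 2, and HYPBUDRAFT_111403 and HYPBUDRAFT_180195 were called in every one of the 8 fits that left out a library. The other 10 lost the call in some of these fits, and TIM1 lost it in all 8. HYPBUDRAFT_212503 lost its call without any YPD, NaCl or KCl library (adjusted p up to 0.17).

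In sorbitol against YPD no member fell and 1 rose by limma (3 and 6 at an unadjusted p under 0.05), where 1.21% of all tested genes were called lower and 3.75% higher (70 and 216 genes, or 93 and 163 under quantile normalization). The gene that rose was ERG1 (log2 change 0.67 ± 0.12, adjusted p = 0.03), which lost the call without any YPD, NaCl or sorbitol library (adjusted p up to 0.13). The members' median log2 change was 0.24, against -0.04 over all tested genes, and 11 of 38 estimates were below 0. Mean levels in sorbitol ran from 65.0% of YPD in HYPBUDRAFT_107455 to 175% in HYPBUDRAFT_152200. The p-values that missed the threshold do not show that these levels were alike.

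In KCl against sorbitol 17 members were lower in KCl, none was higher and 21 were not called by limma (25 and 1 at an unadjusted p under 0.05), where 2.53% of all tested genes were called lower and 3.64% higher. The median log2 difference was -0.62, against 0.01 over all tested genes. The lower genes were 12 named members and 5 without a symbol, and 10 of the 17 were also among those lower in KCl than in YPD. HYPBUDRAFT_111403 had the deepest difference (-2.55 ± 0.14, adjusted p = 9.8e-05), followed by HYPBUDRAFT_180195 (-1.50 ± 0.14, adjusted p = 0.001), HYPBUDRAFT_108410 (-1.16 ± 0.26, adjusted p = 0.041), HEM13 (-1.16 ± 0.14, adjusted p = 0.0039) and HYPBUDRAFT_126557 (-1.11 ± 0.20, adjusted p = 0.021). Sterol synthesis was represented by ERG1 (-1.06 ± 0.12, adjusted p = 0.0036) and glycolysis by GPM2 (-1.02 ± 0.17), PFK2 (-0.89 ± 0.16), GPM1 (-0.66 ± 0.14) and PGK1 (-0.56 ± 0.14). PGK1 was barely under the threshold (adjusted p = 0.049996). The other 7 were HYPBUDRAFT_152785 (-1.05 ± 0.16), CAP4 (-1.10 ± 0.24), OSM1 (-0.93 ± 0.14), GAP4 (-0.85 ± 0.18), TIM1 (-0.73 ± 0.11), VPS70 (-0.69 ± 0.17) and APT1 (-0.61 ± 0.13).

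Of these 17 genes, HYPBUDRAFT_111403, HYPBUDRAFT_180195, HEM13 and ERG1 were called in every fit that left out a library. The other 13 lost the call in some of these fits, and PGK1 and APT1 lost it in all of them. The count became 4 without KCl 2 or sorbitol 2, 8 without sorbitol 1 and 11 without either NaCl library. The comparisons share libraries: KCl enters those with YPD and with sorbitol, and each other medium also enters a pair of them. By their means, 22 members had the order sorbitol, YPD, KCl from high to low (57.9%), an order held by 14.8% of the 4312 genes that passed the floor. KCl was the lowest of these 3 media in 31 members (81.6%), against 32.7% of the 4312 genes. The 4312 genes were not matched to the members for level, with median YPD levels of 53.3 and 373 FPKM. Whether other genes of similar level share this order was not tested. Not called in any of the 3 comparisons were 18 members, among them ROA1, ADE13, ERG11, TDH3, ENO1, CWT1 and RPL9B.

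**Figure D4:**
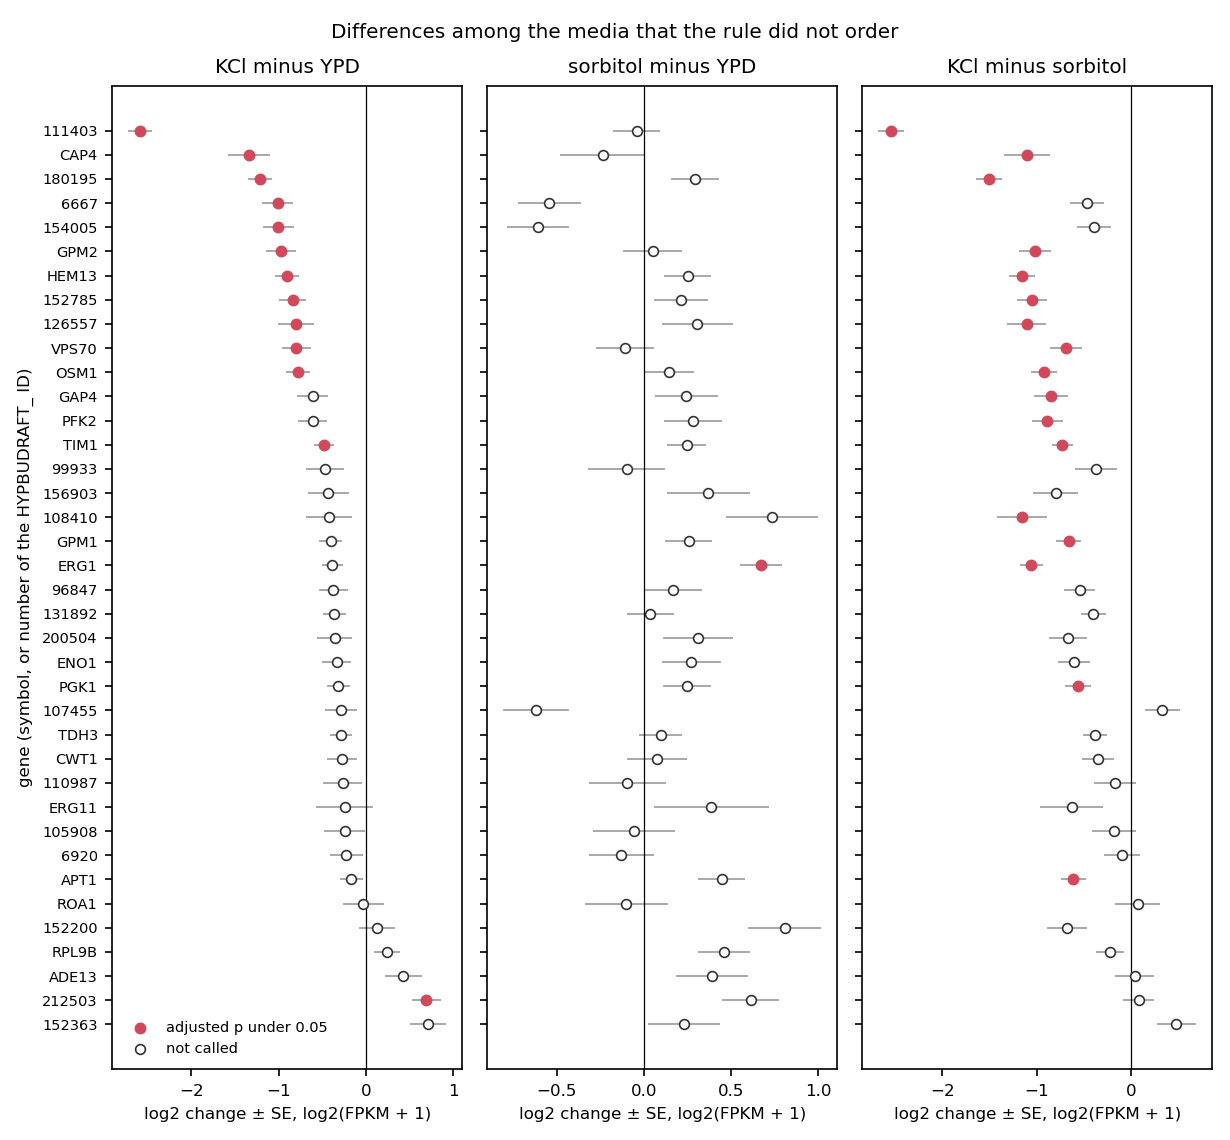
Log2 change with its standard error from limma for each of the 38 members in KCl minus YPD, sorbitol minus YPD and KCl minus sorbitol, on the log2(FPKM + 1) scale, with genes in rows ordered by the first comparison. Red points are called at an adjusted p under 0.05 (13, 1 and 17 genes) and open points are not. Nearly all points lie left of 0 in the outer panels, which share the KCl libraries.

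The pathways of the named members were examined with gene lists. Genes of a list that met the thresholds are low in NaCl by that choice, so the counts below are over the other genes of each list, which leaves out the lowest genes of the list too. The glycolysis and fermentation list had 23 measured genes, of which 7 met the thresholds, the 6 members and ADH1. Of the other 16, 6 were lower in NaCl than in KCl and 1 was higher, where 3.99% of all tested genes were called lower and 6.80% higher. Their median log2 change was -0.27, against -0.02 over all tested genes. The pyruvate kinase gene CDC19 was lower (-0.97 ± 0.18, adjusted p = 0.012), at 9047 and 7481 FPKM in the YPD libraries, 3741 and 3222 with NaCl, 7936 and 5827 with KCl, and 10854 and 9388 with sorbitol. PDC11, the pyruvate decarboxylase gene of ethanol formation, was also lower (-0.94 ± 0.19, adjusted p = 0.018), and the aldehyde dehydrogenase gene ALD5 was higher (0.95 ± 0.16, adjusted p = 0.0065). The 6 became 1 without KCl 1 and 0 without either NaCl library, and the 1 higher gene became 0 without NaCl 1. CDC19 and PDC11 lost the call in those 3 fits (adjusted p up to 0.12), and ALD5 without NaCl 1 (adjusted p = 0.066).

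Against sorbitol, 7 of these 16 genes were lower in NaCl and 4 were higher, where 13.6% of all tested genes were called lower and 16.8% higher, with a median of -0.31 against 0.01. CDC19 (-1.54 ± 0.18, adjusted p = 0.00051) and PDC11 (-1.55 ± 0.19, adjusted p = 0.00062) were again lower. The 4 higher genes became 2 without NaCl 1, NaCl 2 or sorbitol 1. Against YPD 7 of the 16 were lower and 2 higher, with a median of -0.46, where 11.5% of all tested genes were called lower and 16.0% higher (665 and 920 genes, or 998 and 794 under quantile normalization).

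The sterol synthesis list had 28 measured genes, of which 4 met the thresholds, the members ERG1 and ERG11, and ERG3 and UPC2, which were left out by ID. Of the other 24, 4 were lower in NaCl than in KCl, ERG251, ERG4, ERG25 and IDI1, and none was higher by limma (12 and 0 at an unadjusted p under 0.05). The shares over all tested genes were 3.99% and 6.80%, and the median of the 24 was -0.32. The C-4 sterol methyl oxidase gene ERG251, just outside the ratio threshold, stood at 1484 and 1468 FPKM in the YPD libraries, 488 and 458 with NaCl, 968 and 806 with KCl, and 1551 and 1645 with sorbitol, and differed by -0.90 ± 0.13, adjusted p = 0.0029. ERG4, which makes the last step to ergosterol, differed by -0.79 ± 0.18, adjusted p = 0.026. The count of 4 became 2 without KCl 2 and 1 without KCl 1 or either NaCl library. ERG4 lost the call without KCl 1 or either NaCl library (adjusted p up to 0.15).

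Against sorbitol 18 of these 24 sterol genes were lower in NaCl and none was higher by limma (19 and 0 at an unadjusted p under 0.05), with a median of -0.71, where 13.6% of all tested genes were called lower and 16.8% higher. Against YPD the counts were also 18 and 0 (20 and 0 unadjusted), with a median of -0.61, where the shares were 11.5% and 16.0%. The 18 against YPD became 11 without YPD 1 or NaCl 1. Whether the comparisons with KCl, sorbitol and YPD differ from each other beyond error was not tested. Falls in NaCl were not particular to lists with members. Among lists with none, heat shock and chaperones had 13 of 19 genes lower than in YPD and 0 higher. Against sorbitol 9 of these 19 were lower and 1 higher, and against KCl 1 was lower and 0 higher. In KCl, too, 8 of the 19 were lower than in YPD. Oxidative phosphorylation and TCA cycle had 24 of 49 lower than in sorbitol and 3 higher. Its counts were 10 lower and 3 higher against YPD, and 9 lower and 2 higher against KCl. Ribosome biogenesis went the other way against YPD alone, with 2 of 57 lower and 19 higher. Against sorbitol 16 of these 57 were lower and 0 higher, and against KCl 3 were lower and 0 higher. The larger counts of these 3 lists shrank in some fits that left out a library.

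The list of haem synthesis and haem proteins had 14 measured genes, of which only HEM13 met the thresholds. Of the other 13, 3 were lower in NaCl than in KCl and 1 was higher, with a median of -0.29, where 3.99% of all tested genes were called lower and 6.80% higher. The lower genes were HEM3 (porphobilinogen deaminase, -0.72 ± 0.16, adjusted p = 0.028), HEM14 (protoporphyrinogen oxidase, -0.60 ± 0.14, adjusted p = 0.031) and the flavohaemoglobin gene YHB1 (-0.90 ± 0.19, adjusted p = 0.023), which detoxifies nitric oxide. YHB1 stood at 2574 and 1919 FPKM in the YPD libraries, 643 and 651 with NaCl, 1365 and 1070.3 with KCl, and 1997 and 1532 with sorbitol. Its ratio of 0.608 lay just outside the threshold that chose the members. The catalase gene CAT1 was higher (1.28 ± 0.22, adjusted p = 0.0088), at 129 and 157 FPKM in the YPD libraries, 271 and 281 with NaCl, 96.3 and 134 with KCl, and 73.4 and 106 with sorbitol. The 3 became 1 without KCl 2 and 0 without KCl 1 or either NaCl library, and CAT1 lost its call in the latter 3 fits (adjusted p up to 0.06). YHB1 lost the call in the same 3 fits (adjusted p up to 0.13), and HEM3 and HEM14 without any KCl or NaCl library (adjusted p up to 0.20). Against sorbitol 8 of the 13 were lower and 1 was higher, CAT1 (1.63 ± 0.22, adjusted p = 0.001), with a median of -0.54, where 13.6% of all tested genes were called lower and 16.8% higher. The 1 higher gene became 2 without either YPD library. Against YPD 7 were lower and 2 higher, with a median of -0.51, where 11.5% and 16.0% of all tested genes were called. The 7 became 4 without YPD 1 and 3 without either NaCl library, and the 2 became 0 without YPD 1 or either NaCl library and 1 without YPD 2.

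**Figure D5:**
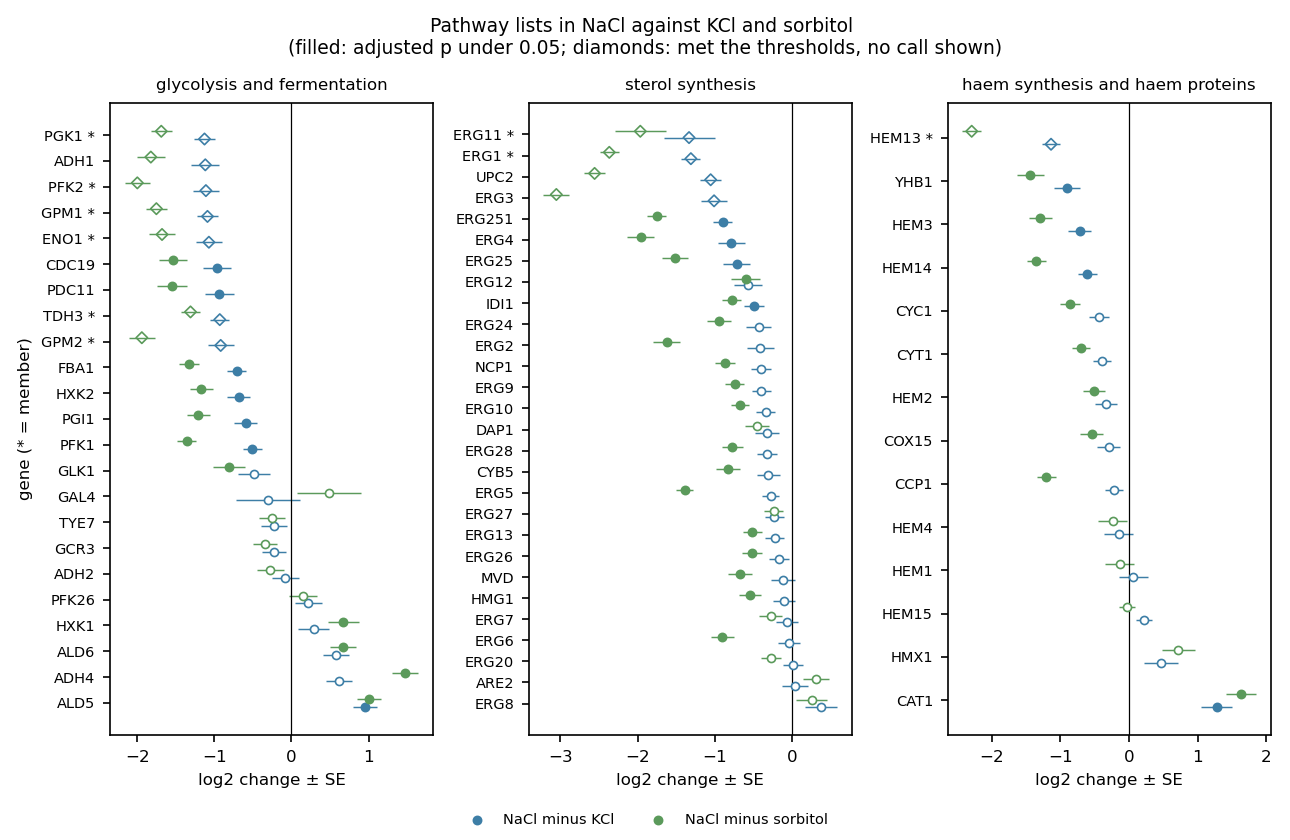
Log2 change with its standard error from limma in NaCl minus KCl (blue) and NaCl minus sorbitol (green) for each measured gene of 3 lists, with stars on the 9 members. Diamonds are genes that met the thresholds, shown with no call, and filled circles are other genes called at an adjusted p under 0.05. In sterol synthesis 18 of the 24 green circles are filled, all left of 0, and 4 of the 24 blue ones.

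Beside the member ROA1, the multidrug and lipid transporter list had 9 measured genes. None of the 9 was called lower or higher in NaCl than in KCl by limma (2 and 0 at an unadjusted p under 0.05), where 3.99% of all tested genes were called lower and 6.80% higher, and their median was 0.03. Against sorbitol 2 of the 9 were lower, TPO4 (-0.90 ± 0.19, adjusted p = 0.0081) and YOR1 (-0.58 ± 0.17, adjusted p = 0.037), and PDR16 was higher (0.78 ± 0.21, adjusted p = 0.026), with a median of 0.02, where the shares were 13.6% and 16.8%. TPO4 lost its call without NaCl 2 (adjusted p = 0.059), YOR1 without any NaCl, KCl or sorbitol library (up to 0.20) and PDR16 without any NaCl or sorbitol library (up to 0.13).

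Beside the member GAP4, the amino acid transport list had 16 measured genes. Of these 16 none was lower in NaCl than in KCl by limma (1 at an unadjusted p under 0.05) and 2 were higher, with a median of 0.08, where 3.99% of all tested genes were called lower and 6.80% higher. The higher genes were the urea transporter gene DUR3 (2.94 ± 0.55, adjusted p = 0.013) and AGP3 (0.90 ± 0.20, adjusted p = 0.025). DUR3 was all but absent in YPD, at 0.019 and 0.248 FPKM in the YPD libraries, 29.5 and 32.2 with NaCl, 1.201 and 6.83 with KCl, and 0.301 and 1.57 with sorbitol. Without NaCl 1 the count of lower genes became 1, and the 2 higher genes became 0 without either NaCl library and 1 without either KCl library. The largest adjusted p without a library was 0.08 for DUR3 and 0.14 for AGP3. Against sorbitol none of the 16 was lower by limma (1 at an unadjusted p under 0.05) and 5 were higher, with a median of 0.40, where 13.6% of all tested genes were called lower and 16.8% higher. Here the lower count became 1 without NaCl 1, and the 5 became 2 without NaCl 2 or sorbitol 2 and 3 without sorbitol 1.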

How the data were processed

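The deposited files give 1 FPKM value per gene and library, made by the authors with TopHat and Cufflinks per the submitters' processing notes. The labels state no version, genome build, annotation or strand setting, and FPKM was inferred from the values, as the headers name no unit. No scaling was added. Of 6166 genes, 6157 matched the RefSeq annotation of assembly Hypbu1 by locus tag, and 37 of the 38 members. The members and 15 pathway lists were chosen with earlier results of these data known. The lists that held members were glycolysis and fermentation, sterol synthesis, haem synthesis and haem proteins, multidrug and lipid transporters, and amino acid transport.

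On the log2(FPKM + 1) scale, limma 3.58.1 (R 4.3.3) fitted 4 groups over 8 libraries with an intensity trend, on 4 residual degrees of freedom (8.31 in total with the prior). The script was tested on simulated data. Any member could be named. Other genes were at most 4 a list, those of largest change in the comparison named, beside those nearest the thresholds. ERG25 and IDI1 (to complete a count of 4) and CHA1 (as a gene left out) were named after their values were seen. The exact permutation test of 2 libraries against 2 cannot go below p = 0.333 and was not used. Alternatives covered the pseudocount, the filter, scaling, the trend, a replicate block, each library left out, and the thresholds. Depth was estimated from the steps between low values, of which 84.6% to 90.2% lay within 0.15 of a whole step, and covers counting error only.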

Additional observations from a re-analysis of the deposited data

How the results depend on the processing

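The set has 10 genes at a ratio of at most 0.5 and 101 at 0.7, 41 and 34 with floors of 5 and 20 FPKM, 36 under median-ratio scaling (all 36 members) and 51 under quantile normalization (34 of them members). Leaving a library out of the rule gave 38 to 98 genes. With each library left out, members lower in KCl than in YPD numbered 3 to 11 and members higher 0 to 2, those higher in sorbitol than in YPD 0 to 2, and those lower in KCl than in sorbitol 4 to 14. Over the same fits, and with the genes that met the thresholds included, the lower genes in NaCl against KCl numbered 5 to 13 in glycolysis and fermentation, 4 to 7 in sterol synthesis and 1 to 4 in the haem list, and in NaCl against YPD 4 to 8 in the haem list. These list counts include genes chosen for their low NaCl levels, so they do not show how well the falls in each list held. Over the other genes of each list, the counts against KCl shrank to few or none in some of these fits, as given above. Quantile normalization gave 0 members higher in sorbitol than in YPD and 11 lower in KCl than in sorbitol, and limma without the trend gave 0 higher in sorbitol than in YPD. Under quantile normalization 6 of the 17 genes lower in KCl than in sorbitol lost the call. Among them were PGK1 (log2 difference -0.29), GPM1 (-0.36) and TIM1 (-0.39). The cause was not tested. Replicate numbers are shared by the media but are not stated to mark a batch, and the correlations of same-numbered deviations ran from -0.13 to 0.45. With the replicate number as a block, 14 members were lower and 2 higher in KCl than in YPD, 2 were lower and 3 higher in sorbitol than in YPD, and 19 were lower in KCl than in sorbitol. Of 465 results for called members under the alternatives, 339 kept the call, 126 lost it and 0 changed direction. Most of the lost calls fell in the fits that left out a library, so the pooled count overstates how well calls held there. With 2 libraries per medium, changes under about the spread between duplicates cannot be seen.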
